A study of Mus musculus with 12 samples.

Results

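Apela and Apln encode the peptide ligands of the apelin receptor, and Aplnr encodes the receptor itself. These 3 genes were taken by symbol, and all probe sets of the array that the platform table gives to 1 of them alone were used. There were 5 such probe sets among 45037, namely 2 for Apela, 1 for Apln and 2 for Aplnr. They make up 3 of the 17097 genes measured. The group was chosen by the difference of Apela with YAP overexpression, which stood among the largest increases in an earlier look at these arrays. Values of these genes in that comparison are therefore given as a description, with no test, and only the second comparison was tested.

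The arrays measured RNA from embryonic mouse brain of mixed genetic background, 12 arrays in 4 groups of 3. The first experiment used E11.5 forebrain with midbrain. The YAP overexpression group was TetO-YAP1;Nes-rtTA. It carried a doxycycline-dependent allele of YAP1 with the S127A change, switched on by a transactivator under the Nestin promoter of neural progenitors. The YAP control group was Nes-rtTA alone. The food of the dam held doxycycline at 200 mg/kg from E7.5. In the second experiment dorsal telencephalon was taken at E13.5. The Nf2 knockout group was Nf2F/F;Emx1-Cre and the Nf2 control group Nf2F/+;Emx1-Cre, so both carried the telencephalic Cre and the controls had lost 1 copy of Nf2 where it acted. Whether either driver acted in blood vessels, where the apelin receptor is best known, was not tested. The labels number the arrays but do not say that each came from a separate embryo, so the spread behind each p-value is that of these arrays and could be partly technical.

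The apelin receptor is a G protein-coupled receptor of endothelial cells and their mesodermal precursors. Apelin is released by sprouting tip cells of growing vessels and by other cells short of oxygen, and it acts on neighbouring endothelium. Apela, also called Elabela or Toddler, is a short secreted peptide that guides mesoderm and heart progenitors in the early embryo and is made by pluripotent cells. YAP is the transcriptional co-activator that the Hippo pathway restrains, it binds DNA through TEAD factors, and Nf2 acts upstream of the Hippo kinases.

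Values are log2 intensities, and the 2 experiments were apparently normalized apart (array medians 5.03 to 5.1 and 4.3 to 4.42), so levels were compared within an experiment only. To place a probe set relative to background, 44 measured genes of adult tissues that the embryonic brain should not express (sperm, milk, pancreas, kidney, eye and the like) served as a reference, with 55 probe sets. For the arrays of the YAP experiment their median was 4.27 and their 95th percentile 4.9, and for those of the Nf2 experiment these were 3.19 and 4.12. A probe set above the 95th percentile is called measurable here. The reference is imperfect, since 1 of its probe sets averaged above 6 in each experiment. Yap1 ran from 10.99 to 11.07 in YAP controls and from 11.23 to 11.35 with overexpression, a difference of 0.27 that was not called (limma adjusted p = 0.0957). Nf2 ran from 8.41 to 8.66 in controls and from 8.06 to 8.27 in knockouts, a difference of -0.38 that was not called (limma adjusted p = 0.393). Whether these probes see the transgene or the deleted part of Nf2 is not known here. All 10 measured markers of neural progenitors and neurons were measurable in both experiments.

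Apela was higher with YAP overexpression on its brighter probe set, 1436287_PM_at. The YAP control arrays read 6.27, 6.19 and 6.17, with a mean of 6.21 (SD 0.05, n = 3). The overexpression arrays read 8.58, 8.43 and 7.95, with a mean of 8.32 (SD 0.33, n = 3). The groups lay 1.68 apart at their nearest arrays, and overexpression replicate 3 was the lowest of its group. The difference of means was 2.11 (SE 0.13), or 4.32-fold. Groups failed to overlap in 18.2% of all probe sets and 3.78% were called by limma, 1.48% higher and 2.3% lower. In all, 13 probe sets, this one included, differed upward by at least as much. Apela was already measurable in the control embryos, 1.94 above the reference median and 1.31 above its 95th percentile. Since part of any dim signal is background, the fold may understate the difference in RNA.

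The other Apela probe set, 1442571_PM_at, did not show this difference. It read 4.21, 3.94 and 4.02 in YAP controls and 4.37, 4.26 and 3.91 with overexpression, and the groups overlapped. All 12 of its values lay below the 95th percentile of the reference, and its mean in YAP controls was 0.21 below the reference median. Its difference of 0.12 (SE 0.12) is thus that of a probe set at background, and the higher Apela signal rests on 1 probe set.

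**Figure D1:**
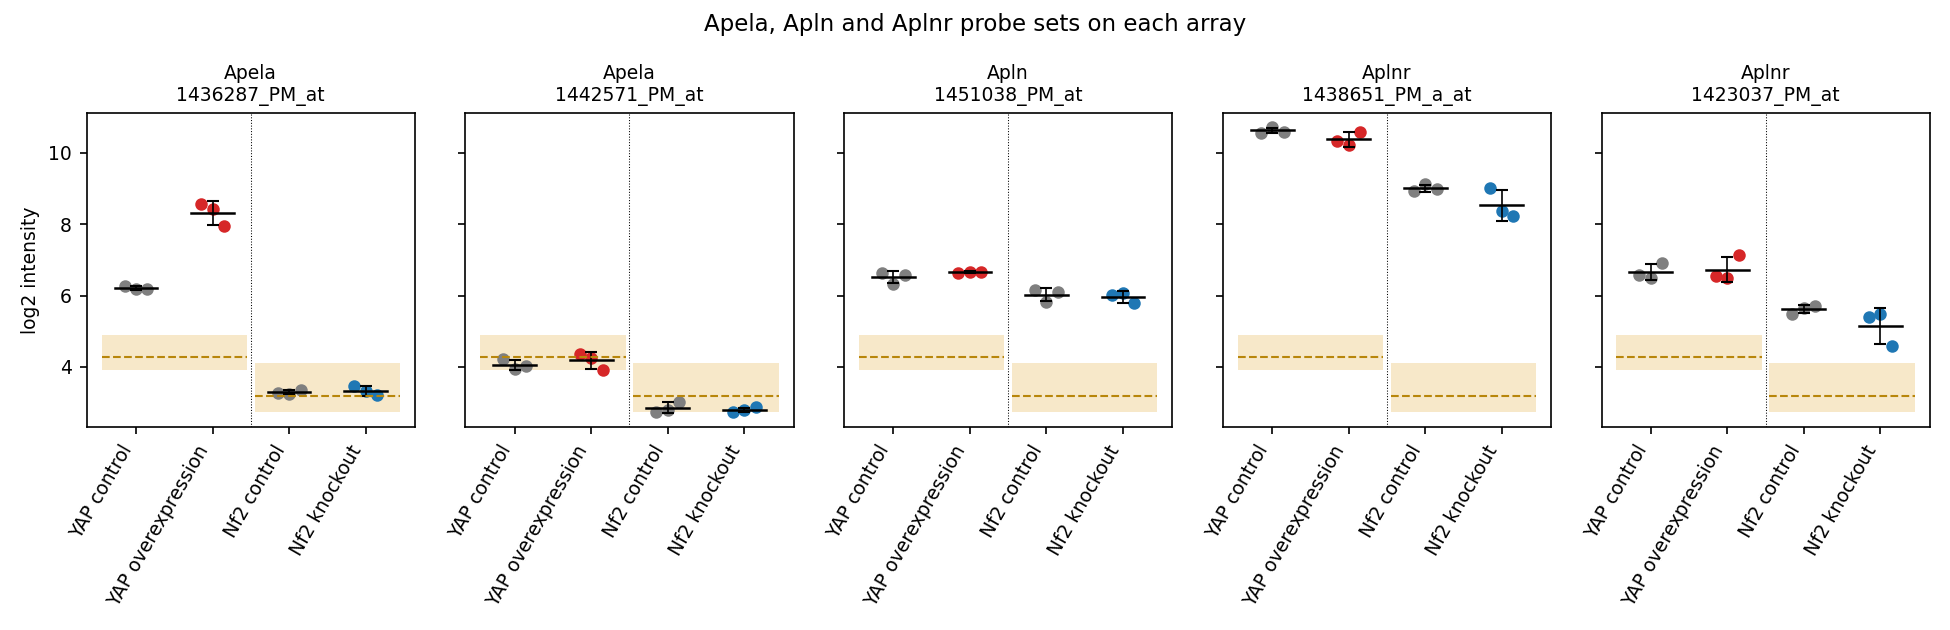
Log2 intensity (vertical axis) of the 5 probe sets on each array, by group; points are arrays, bars the mean and SD of 3 arrays, the shaded band the 5th to 95th percentile of the adult tissue reference and the dashed line its median. Apela 1436287_PM_at stands at 7.95 to 8.58 with YAP overexpression against 6.17 to 6.27 in controls and lies within the band in the Nf2 experiment.

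In dorsal telencephalon at E13.5 Apela was at background on both probe sets, with and without Nf2. On 1436287_PM_at the Nf2 controls read 3.26, 3.24 and 3.35 and the knockouts 3.47, 3.31 and 3.2. The means of 3.28 (SD 0.06) and 3.33 (SD 0.14, n = 3 each) lay 0.10 and 0.14 above the reference median, and none of the 6 arrays reached its 95th percentile. The difference of 0.04 (SE 0.13) was not called (limma adjusted p = 0.996), with a 95% interval from -0.25 to 0.33. The second probe set differed by -0.06 (SE 0.12, adjusted p = 0.996 by limma), with an interval from -0.32 to 0.21. These intervals hold for the signal, and a change of Apela below background would not be visible.

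The YAP reporters were raised in both experiments, unlike the Apela signal. Ccn1, a secreted matrix protein gene, rose by 1.93 (SE 0.11) with YAP overexpression and by 1.02 (SE 0.11) with Nf2 loss, and Ccn2, of the same family, by 2.50 (SE 0.22) and 2.03 (SE 0.22). Of 14 measured YAP/TEAD target genes 7 rose with YAP overexpression (median 0.63) and 4 with Nf2 loss (median 0.19), and none fell in either. Over all genes 2.06% and 0.175% were called higher, with medians of -0.01 and -0.00. Whether the Apela response differed between the experiments was not tested, because the first comparison chose the gene and because age, region and manipulation cannot be told apart. Across the array, 108 probe sets were called at least 2-fold higher with YAP overexpression, a set from which Apela was not removed. In the Nf2 arrays 20 of these (18.5%), Apela 1436287_PM_at among them, were not measurable in either group, against 46% of all probe sets. The 108 were picked by a rise in the YAP arrays, which favours expressed genes, so a lower share was to be foreseen. With Nf2 loss 28 of the 108 were called higher, none of them among the 20, where signal at background makes a call unlikely.

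**Figure D2:**
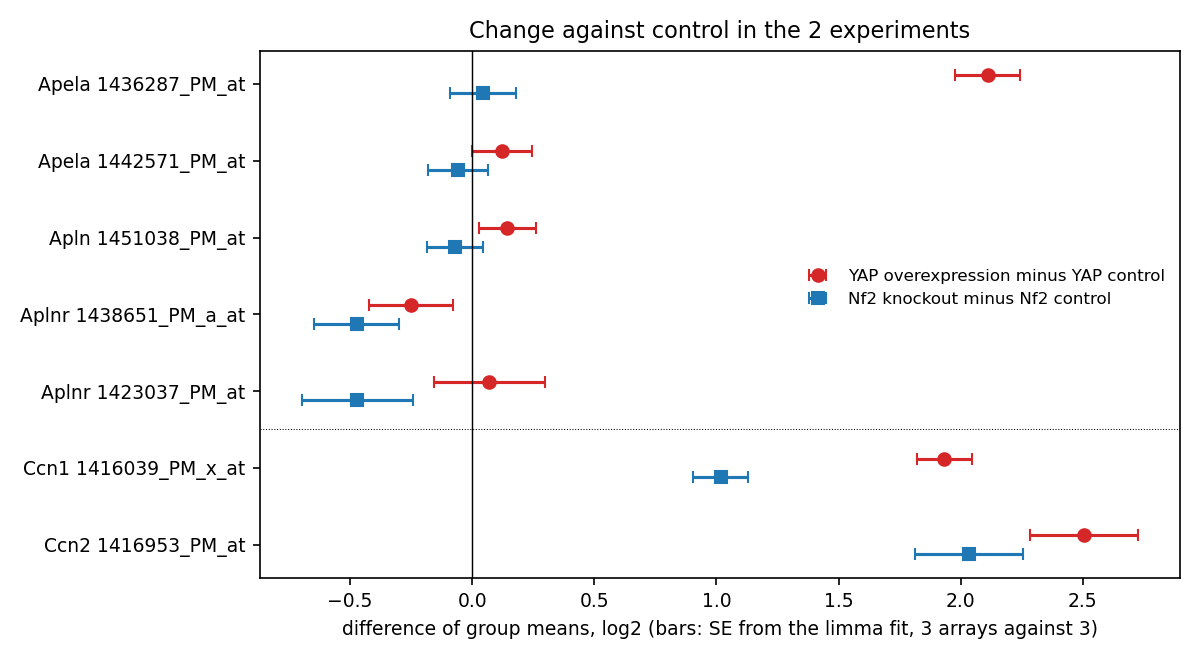
Difference of group means on the log2 scale (horizontal axis) for the 5 probe sets and, under the dotted line, the reporters Ccn1 and Ccn2; circles are YAP overexpression, squares Nf2 knockout, and bars the SE. Apela 1436287_PM_at reaches 2.11 with YAP overexpression and 0.04 with Nf2 knockout, while both reporters rise in both.

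The promoters of the ligands are shown because TEAD factors, through which YAP acts, are known to bind a short motif, GGAATG or CATTCC on the other strand. They stand beside those of Ccn1 and of Ankrd1, a muscle ankyrin repeat gene, as established YAP targets. Each is the 250 bases before the annotated start, from RefSeq on GRCm38.p6, read 5′ to 3′ on the minus strand, on which all 4 genes lie, with matches to the TEAD motif in capitals. The windows are chr8:65037337-65037586 for Apela, chrX:48034854-48035103 for Apln, chr3:145649986-145650235 for Ccn1 and chr19:36119845-36120094 for Ankrd1.
Apela: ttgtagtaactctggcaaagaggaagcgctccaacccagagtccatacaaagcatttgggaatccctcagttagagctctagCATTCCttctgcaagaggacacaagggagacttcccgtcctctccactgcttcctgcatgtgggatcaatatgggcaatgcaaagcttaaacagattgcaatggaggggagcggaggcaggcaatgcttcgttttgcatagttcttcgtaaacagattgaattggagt
Apln: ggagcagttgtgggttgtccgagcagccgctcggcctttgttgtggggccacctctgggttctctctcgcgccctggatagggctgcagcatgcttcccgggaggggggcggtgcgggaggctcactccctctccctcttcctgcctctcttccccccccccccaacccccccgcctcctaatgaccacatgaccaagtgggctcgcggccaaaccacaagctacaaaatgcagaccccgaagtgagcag
Ccn1: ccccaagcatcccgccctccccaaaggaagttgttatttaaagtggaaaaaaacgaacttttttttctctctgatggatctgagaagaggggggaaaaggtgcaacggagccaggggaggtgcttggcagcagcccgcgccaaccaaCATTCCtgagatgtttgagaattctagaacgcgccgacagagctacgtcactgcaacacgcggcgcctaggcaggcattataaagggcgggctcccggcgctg
Ankrd1: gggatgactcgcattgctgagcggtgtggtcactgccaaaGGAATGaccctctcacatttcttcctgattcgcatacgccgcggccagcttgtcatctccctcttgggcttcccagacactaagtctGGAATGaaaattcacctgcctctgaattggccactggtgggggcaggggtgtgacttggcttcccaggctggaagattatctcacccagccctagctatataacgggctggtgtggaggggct

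The Apela window held 1 match, whose first base lay 168 bases before the start, and the Ccn1 window 1, at 103 bases. The Ankrd1 window held 2, at 210 and 123 bases, and the Apln window held none. Of 32851 windows of this length in the RefSeq table, 12.6% held at least 1 match, so a match in a given window is common. One form of the core site of hypoxia-inducible factors, ACGTG or CACGT on the other strand, was in none of these 4 windows and in 16.6% of all. Other forms of that core were not searched. Such matches describe the sequence and do not show binding. No window is shown for Aplnr.

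Over the 12 arrays, each centred on the mean of its own experiment, the genes most like Apela were other genes higher with YAP overexpression. Pearson's r was 0.993 for Dtna, a dystrobrevin gene, 0.971 for Mtap, an enzyme of methionine salvage, and 0.969 for Epha2, an ephrin receptor gene. It was 0.966 for Ankrd1 on probe set 1420992_PM_at and 0.964 for Uaca. Spearman's rho ran from 0.907 to 0.961 for these 5 genes, and 95% of the 18222 measurable single-gene probe sets had an r under 0.724. Their differences with YAP overexpression were 0.61, 0.53, 1.30, 0.58 and 0.79, and with Nf2 knockout between -0.07 and 0.02. The likeness mostly restates the group difference, since these values come from the same 12 arrays. With each array centred on its own group, the nearest were Sdcbp (0.98), Plagl1 (0.979), Ankrd1 on the same probe set (0.965), Fn1, the fibronectin gene (0.963), and Megf6 (0.961). That measure rests largely on the 3 overexpression arrays, where Apela spread most. Another Ankrd1 probe set, brighter on average, stood for the gene in the YAP/TEAD list. Its group means lay at background in both experiments, though overexpression replicate 2 read 5.04, above the 95th percentile of the reference. It was not called with YAP overexpression (0.41, SE 0.17, limma adjusted p = 0.256).

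Markers of other cells that the tissue could hold, some of which are known to make Apela, were read on the same arrays. Of 11 measured genes of pluripotent cells and epiblast none was called with YAP overexpression, 3 had an unadjusted limma p under 0.05, and 10 lay at background, with a median difference of -0.07 against -0.01 over all 17097 genes. The mean of that list differed by -0.06, 0.01 and -0.08 in the 3 overexpression arrays. Among 12 epithelial and surface ectoderm genes 1 rose, Krt19 of the keratins (0.84, SE 0.11), and 1 fell, the splicing regulator gene Esrp1 (-0.67, SE 0.11), with a list median of -0.07. Of 5 measured trophoblast genes none was called, none had an unadjusted p under 0.05, and 4 lay at background. Of 7 measured genes of notochord and floor plate Shh, the secreted ventral signal, rose (1.17, SE 0.23), and all 7 were above 0, with a list median of 0.21. Its list mean was higher in all 3 overexpression arrays, by 0.15, 0.52 and 0.42 in replicates 1, 2 and 3, while the controls lay between -0.02 and 0.02. Over the 12 arrays its 6 measurable genes had a median r of 0.512 with Apela when centred on experiment, all 6 above 0. Centred on group it was -0.168, 2 above 0. All genes had medians of -0.0528 and 0.0402. Medians were higher for YAP/TEAD target, hypoxia response and tip cell genes, 0.747, 0.714 and 0.666 when centred on experiment. Centred on group these were 0.307, 0.35 and 0.715. The values centred on experiment mostly restate the group difference. No gene of the notochord and floor plate list was called when only the 6 YAP arrays were fitted, or without control replicate 1, control replicate 3 or overexpression replicate 3. Across all genes 4.98% were called, 2.06% higher and 2.92% lower, and 18.6% had an unadjusted limma p under 0.05. Of 10 measured genes of neural progenitors and neurons 6 fell, with a median of -0.57, and their mean differed by -0.51, -0.19 and -0.53 in overexpression replicates 1, 2 and 3. The part of all these cells in the Apela signal was not tested.

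Apln, the gene of apelin, was measured by 1 probe set, 1451038_PM_at, and was measurable on all 12 arrays. It read 6.64, 6.32 and 6.58 in YAP controls and 6.63, 6.67 and 6.67 with overexpression. The means were 6.51 (SD 0.17) and 6.66 (SD 0.02, n = 3 each), 2.24 and 2.39 above the reference median, and the groups overlapped. The difference was 0.14 (SE 0.12), or 1.1-fold. In the Nf2 experiment it read 6.16, 5.81 and 6.11 in controls and 6.01, 6.08 and 5.78 in knockouts. The means were 6.03 (SD 0.19) and 5.96 (SD 0.16, n = 3 each), again with overlap. The difference of -0.07 (SE 0.12) was not called (limma adjusted p = 0.996), with an interval from -0.32 to 0.18.

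Apln lies on the X chromosome, and the arrays came from embryos of both sexes, as the level of Xist, the transcript of the inactive X, shows. Control replicate 2 of each experiment was the Xist-positive array among its controls, and it was the lowest Apln array there (6.32 and 5.81). The other Xist-positive arrays did not all share this. Overexpression replicate 3 (6.67) was level with the highest of its group, knockout replicate 2 (6.08) was the highest of the knockouts and knockout replicate 3 (5.78) the lowest. With Xist as a covariate the Apln difference was 0.14 with YAP overexpression and -0.01 with Nf2 knockout (limma adjusted p = 0.999). The covariate thus changed no call.

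Apln is known as a gene of endothelial tip cells and as a target of hypoxia-inducible factors, and both groups held genes that rose with YAP overexpression. Of 7 measured tip cell genes 2 rose and none fell (Unc5b, a netrin receptor gene, differed by -0.35 with an unadjusted limma p of 0.0352). Kcne3, a potassium channel subunit gene, rose by 1.39 (SE 0.22) and Esm1, a secreted proteoglycan gene, by 0.90 (SE 0.22). Kcne3 read 4.67, 4.52 and 4.0 in controls and 6.27, 5.69 and 5.4 with overexpression. Esm1 read 4.59, 4.55 and 4.43 in controls and 5.83, 5.73 and 4.72 with overexpression, so replicate 3 stood near the controls. Both genes were at background in all control arrays, and Esm1 also in overexpression replicate 3. The median of the list was 0.31 against -0.01 over all genes, of which 2.06% were called higher. Leaving out any of the arrays except overexpression replicate 3 left 1 tip cell gene called, and leaving out that replicate gave 3.

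Of 13 hypoxia response genes 5 rose with YAP overexpression, against 2.06% of all genes, none fell, and 8 were not called, with a median of 0.35. They were Bnip3, which acts in mitophagy (0.91, SE 0.14), Egln3 and Egln1, oxygen-sensing hydroxylase genes (0.87, SE 0.12 and 0.34, SE 0.07), Slc2a1, a glucose transporter gene (0.43, SE 0.10), and Ldha, lactate dehydrogenase (0.41, SE 0.09). The list mean differed by 0.60, 0.25 and 0.37 in replicates 1, 2 and 3. The count was 2 when only the 6 YAP arrays were fitted, 2 or 3 without any control array or overexpression replicate 1 or 3, and 6 without overexpression replicate 2. With the replicate block it was 3. With Nf2 loss Egln3 rose (0.95, SE 0.12) and none of the other 12 was called, with a list median of 0.11 and 0.211% of all genes called. It was not called in the fit of the 6 Nf2 arrays alone, or without control replicate 3 or knockout replicate 2.

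**Figure D3:**
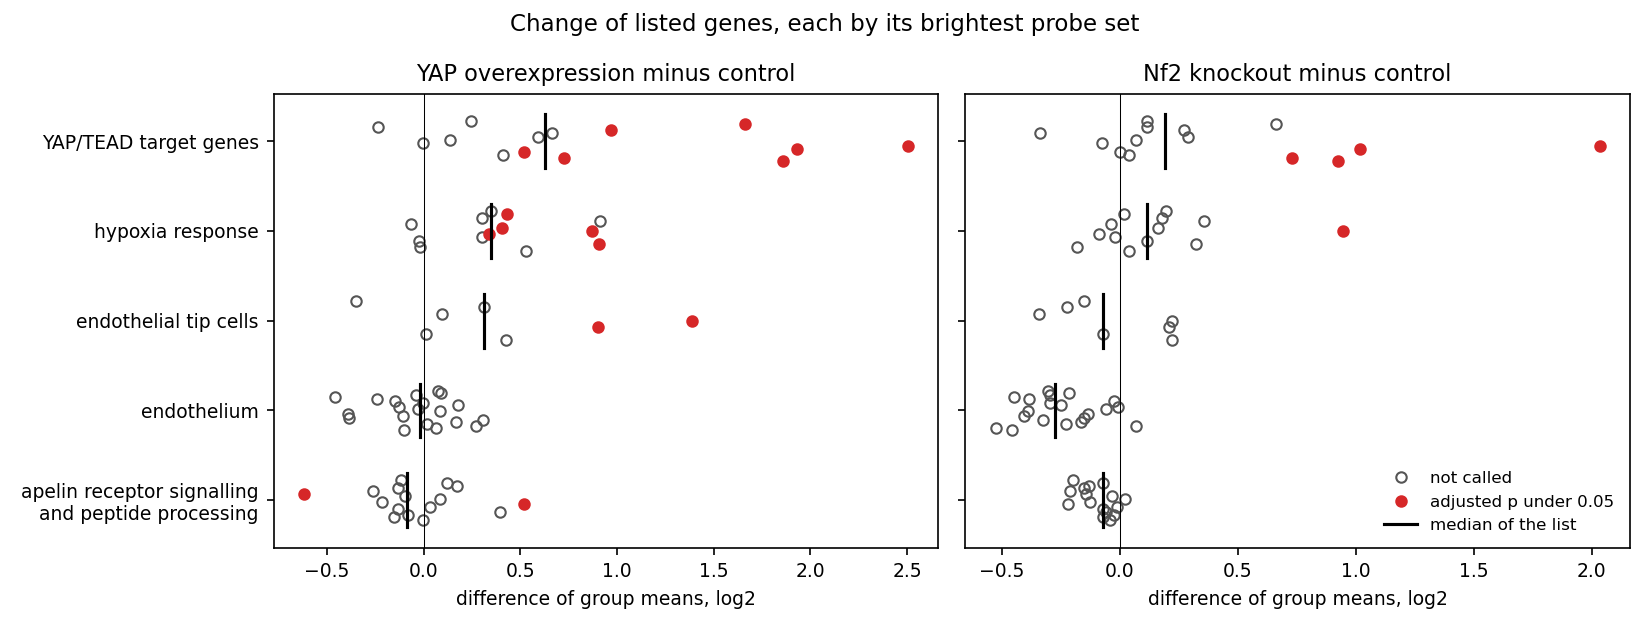
Difference of group means on the log2 scale (horizontal axis) for each gene of 5 lists (rows), in the YAP experiment (left) and the Nf2 experiment (right); filled points passed limma's adjusted p of 0.05 and vertical bars are list medians. With YAP overexpression the medians run from 0.63 for YAP/TEAD targets to -0.09 for apelin receptor signalling, and the endothelial genes centre on -0.02 there and on -0.27 with Nf2 loss.

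Aplnr gave a clear signal in both tissues. On probe set 1438651_PM_a_at the YAP controls read 10.57, 10.72 and 10.6 and the overexpression arrays 10.33, 10.21 and 10.6. The means of 10.63 (SD 0.08) and 10.38 (SD 0.20, n = 3 each) stood 6.36 and 6.11 above the reference median. Overexpression replicates 1 and 2 were below every control, and replicate 3 equalled control replicate 3, so the groups overlapped. The difference was -0.25 (SE 0.17). On the dimmer probe set, 1423037_PM_at, the controls read 6.57, 6.48 and 6.91 and the overexpression arrays 6.56, 6.48 and 7.13. That difference was 0.07 (SE 0.23), so the 2 probe sets did not share a sign. On the dimmer one the sign turned without overexpression replicate 3 (-0.13) and without control replicate 2 (-0.02).

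With Nf2 loss Aplnr was lower by the same amount on both probe sets, without a call. On 1438651_PM_a_at the Nf2 controls read 8.93, 9.12 and 8.98 and the knockouts 9.03, 8.36 and 8.22. Knockout replicate 1 lay among the controls and replicates 2 and 3 below them. The means were 9.01 (SD 0.10) and 8.54 (SD 0.43, n = 3 each), and the difference was -0.47 (SE 0.17), or 0.72-fold. It was not called (limma adjusted p = 0.83, unadjusted p = 0.0171), with a 95% interval from -0.85 to -0.10. On 1423037_PM_at the controls read 5.49, 5.66 and 5.72 and the knockouts 5.41, 5.48 and 4.57, so the groups were apart by 0.01, with replicate 3 far lower. Groups failed to overlap in 10.8% of all probe sets. The difference there was -0.47 (SE 0.23) and was not called (limma adjusted p = 0.975, unadjusted p = 0.0591).

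In the Nf2 comparison limma called none of the 5 probe sets, and 1 of the 5 had an unadjusted p under 0.05, where 0.133% of all probe sets were called and 5.25% had such a p. The receptor's difference leaned on single arrays. On 1438651_PM_a_at it was -0.72 without knockout replicate 1 (limma adjusted p = 0.0743) and -0.32 without replicate 3 (adjusted p = 0.991). On 1423037_PM_at it was -0.18 without replicate 3 (limma adjusted p = 0.999). Over the 6 arrays left out in turn the adjusted p ran from 0.0743 to 0.999 on the first and from 0.785 to 0.999 on the second. Knockout replicates 2 and 3 were both Xist-positive, as was control replicate 2, which had the highest Aplnr of the controls on 1438651_PM_a_at and the middle value on 1423037_PM_at. With Xist as a covariate the difference was -0.46 on the first and -0.47 on the second.

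Endothelial genes were also lower in the Nf2 knockout arrays, without a call. Of 20 genes of endothelium 19 were lower in the knockouts, none was called by limma, and 6 had an unadjusted p under 0.05, with a median of -0.27. Of all genes 0.0351% were called lower. Over all genes 50.8% were lower, the median was -0.00, and 5.81% had such a p. The mean of the 20 genes differed from the control mean by -0.02 in knockout replicate 1, -0.26 in replicate 2 and -0.47 in replicate 3, while control arrays lay between -0.05 and 0.06. Knockout replicate 1 was nearest the controls for the endothelial genes and for Aplnr on 1438651_PM_a_at, while on 1423037_PM_at replicate 2 was nearest and replicate 3 far lower. Cdh5, the endothelial cadherin gene, read 5.82, 5.91 and 5.79 in controls and 5.85, 5.4 and 4.9 in knockouts. Cldn5, a tight junction gene of brain vessels, read 7.56, 8.04 and 7.93 in controls and 7.74, 7.25 and 6.96 in knockouts. Some other genes of the list did not follow this order. Robo4 had the lowest unadjusted limma p of the list (0.00526). It read 5.13, 5.34 and 5.27 in controls and 4.78, 4.75 and 5.05 in knockouts. Kdr differed by -0.01 and Ecscr by 0.07. Of the 20 genes 19 were measurable, and in such bulk tissue fewer endothelial cells and less RNA per cell cannot be told apart. Of 11 measured genes of mesenchyme and pericytes limma called none, 1 had an unadjusted p under 0.05, and the mean differed by 0.06, -0.09 and -0.30 in knockout replicates 1, 2 and 3. Of 8 erythroid genes none was called, 2 had such a p, and the median was -0.06. Their mean was lower in all 3 knockouts, differing by -0.17, -0.15 and -0.21 in replicates 1, 2 and 3, with controls between -0.06 and 0.08. The part of these cells in the Aplnr difference was not tested.

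**Figure D4:**
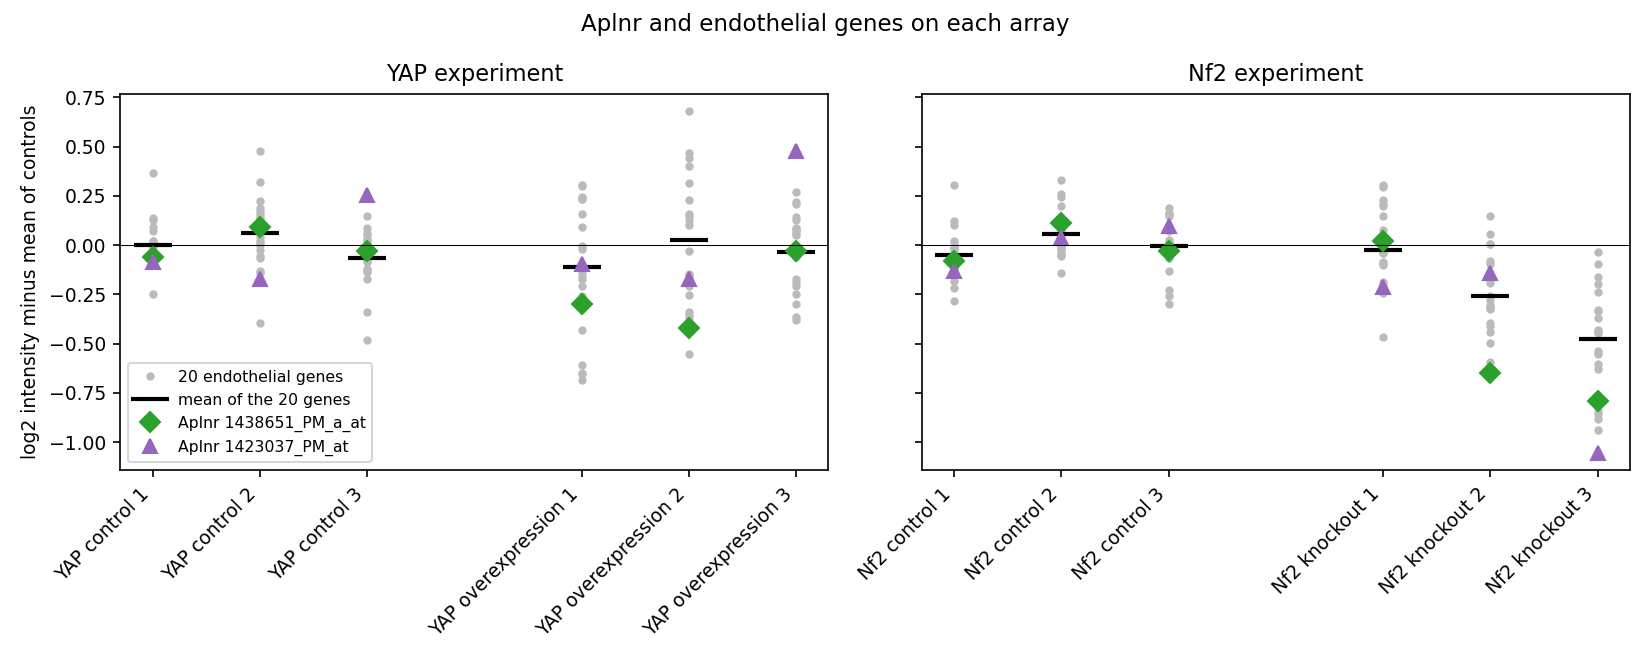
Log2 intensity minus the control mean (vertical axis) on each array of the YAP experiment (left) and the Nf2 experiment (right), for both Aplnr probe sets, 20 endothelial genes (grey points) and their mean (black bar). Nf2 knockout replicates 2 and 3 lie low for the endothelial mean (-0.26 and -0.47) and for Aplnr 1438651_PM_a_at, and replicate 1 lies at the level of the controls for both.

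In the YAP experiment the endothelial genes had a median of -0.02, with 11 of 20 lower, where 51.5% of all genes were lower. Limma called none of the 20, and 2 had an unadjusted p under 0.05, against 18.6% of all genes. The mean of the 20 genes differed by -0.11, 0.03 and -0.03 in overexpression replicates 1, 2 and 3. The mean of the mesenchyme and pericyte genes differed by -0.17, -0.29 and -0.16 in these replicates, while the controls ranged from -0.25 to 0.17. Limma called none of those 11 genes, 2 had an unadjusted p under 0.05, and the median was -0.25. Overexpression replicate 2 was thus lowest of its group both for Aplnr on 1438651_PM_a_at (10.21) and for that list, and their relation was not tested.

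Over the 12 arrays centred on their experiment, the genes most like Aplnr on 1438651_PM_a_at were Foxf2, a forkhead gene of brain pericytes (r = 0.916), Egflam (0.901), Klf9 (0.896), Sox17, an arterial transcription factor gene (0.893), and Eng, a co-receptor gene of endothelium (0.885). Spearman's rho ran from 0.806 to 0.921. Sox17 and Eng belong to the endothelial list, whose 20 genes had a median r of 0.556 with Aplnr, 18 of them above 0, where all genes had a median of 0.0449 and 55.2% above 0. With arrays centred on their group the endothelial median was 0.509, against 0.0392 for all genes. That measure rests largely on the 3 Nf2 knockout arrays, where Aplnr spread most (SD 0.43). By the same measure the mesenchyme and pericyte genes had a median of 0.395 and the erythroid genes 0.237, so the likeness was not particular to endothelium. The 5 nearest genes by that measure were others, namely Acadl, Slc25a3, Vamp3, Cep85 and Eogt (r from 0.935 to 0.958). The 2 Aplnr probe sets had an r of 0.652 with each other and 0.585 when centred on group.

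Apln did not follow the endothelial list in this way. Its nearest genes were Ncoa3 (0.912), Slc12a2 (0.896), Yy1 (0.885), Ankhd1 (0.881) and Plekhg1 (0.874), with rho from 0.586 to 0.895. The median r was 0.113 over the endothelial genes, 0.275 over the tip cell genes and 0.332 over the hypoxia response genes. All genes had a median of 0.0198. Centred on group these medians were 0.0448, 0.038 and 0.221, against 0.0519 for all genes. By that measure the nearest genes were Vav2 (0.965), Shmt2 (0.948), Dtx4 (0.93), Fads3 (0.925) and Ncoa3 (0.923).

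Further along the pathway, 16 of 21 listed genes that carry the receptor's signal or process its peptides were measured. With YAP overexpression Gnai1, an inhibitory G protein subunit gene of the kind the receptor couples to, rose by 0.52 (SE 0.08). Hdac5, a histone deacetylase gene that apelin signalling acts on in endothelium, fell by 0.62 (SE 0.13), and 14 were not called. The list median was -0.09 against -0.01 over all genes, of which 4.98% were called. The count of 2 called genes fell to 1 without overexpression replicate 1 or 3, and in the fit of the 6 YAP arrays. Furin, a protease gene that can process proapelin, differed by 0.40 (SE 0.12, limma adjusted p = 0.113), and the neprilysin gene Mme, whose product can degrade apelin, by 0.17 (SE 0.12, limma adjusted p = 0.573), at background. The other inhibitory G protein genes Gnai2 and Gnai3 differed by -0.22 and 0.09, and the arrestin genes Arrb1 and Arrb2 by -0.15 and -0.08, none of them called. Klf2 and Nos3, flow-responsive genes of endothelium downstream of the receptor, differed by -0.26 and 0.12, without a call.

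With Nf2 loss limma called none of the 16 genes, and 2 had an unadjusted p under 0.05, against 5.81% of all genes. They were Gnai1 and the protease gene Pcsk1, the latter at background. The differences of the 16 genes were small, from -0.22 for Gnai1 to 0.02 for Gnai3, with a median of -0.07. Of these 15 were below 0, where 50.8% of all genes were lower. Gnai1 was thus higher with YAP overexpression and, without a call, lower with Nf2 loss. The difference between these was not tested.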

How the data were processed

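The authors deposited 1 log2 intensity for each probe set and array, for 12 arrays of perfect-match probes, read from RNA labelled by a 3' IVT kit. Partek 6.5, Affymetrix Expression Console 1.1 and RMA stand in the submitters' processing notes, with no roles given. How the authors corrected background is not given in the sources used here. Probe sets were named by the 2016 platform table, with 28898 probe sets of a single gene and 551 of several, and 28689 were updated to RefSeq symbols by Entrez ID.

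The means of the 4 groups were estimated from the 12 arrays for each of 45037 probe sets (limma 3.58.1, run under R 4.3.3) (8 residual and 4.62 prior degrees of freedom). Two-sided p-values were Benjamini-Hochberg adjusted over all probe sets. A probe set was called at an adjusted p under 0.05, and rose or fell is used of called ones. In listed genes, of which 152 of 179 were measured, the probe set with the highest mean stood for the gene. Intervals are 95% intervals of the fit and are given for the Nf2 comparison alone. An exact permutation test was not used, because 3 arrays against 3 cannot pass the threshold. The number of arrays limits the precision.

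The rule for named genes was all 5 probe sets, up to 4 called genes per list, genes on which a sentence turns, and the 5 genes most correlated with each member. The members and lists were chosen with earlier results of these data known. The fit was tested on simulated data. Same-numbered arrays were checked by the correlation of their deviations from group means. These were 0.296, 0.205 and 0.268 in the Nf2 experiment, whose numbers may mark pairs, and 0.117, -0.141 and -0.147 in the YAP experiment. The labels state no pairing, and YAP arrays of unlike numbers (control 2, overexpression 3) reached 0.26. The Nf2 p-values come from the fit without pairs unless the replicate block is named.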

Additional observations from a re-analysis of the deposited data

How the results depend on the processing

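The 5 probe sets were refitted with array medians subtracted, quantile normalization, the arrays of 1 experiment, array weights, another variance prior, the replicate block, 1 probe set per gene, dim probe sets left out, Xist as a covariate and each array left out. Of 72 such values with YAP overexpression all moved by less than the larger SD of the groups compared. That outcome was largely fixed beforehand. Leaving out 1 of 3 arrays cannot move a difference that far. The variance prior, the replicate block and the choice of arrays or probe sets fitted leave the difference itself unchanged. Apela 1436287_PM_at ran from 2.05 to 2.14 and, with 1 array left out, from 1.98 to 2.30. Of 72 with Nf2 knockout none was called and 69 kept their sign. The other 3 turned sign with 1 array left out, Apela 1436287_PM_at to -0.0283 without knockout replicate 1 (range -0.03 to 0.11), Apela 1442571_PM_at to 0.0283 without control replicate 3 (range -0.11 to 0.03) and Apln to 0.0183 without knockout replicate 3 (range -0.18 to 0.02). With the replicate block Aplnr stayed at -0.47 on both probe sets (limma adjusted p = 0.774 and 0.813). The block changed no call of the 5 probe sets in the Nf2 experiment.

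The 1704 probe sets called with YAP overexpression became 648 in the fit of its 6 arrays, 1078 with 1 probe set per gene, where fewer were tested, and 784 to 2014 with 1 array left out. The 60 called with Nf2 knockout became 21 to 32 with 1 array left out, and the replicate block gave 44. Higher calls made up 39.1% with YAP overexpression, and 49.2% once array medians were subtracted. The cause was not tested. Signal over background limits Apela in the Nf2 experiment.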

Other observations

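The angiotensin axis, whose receptor genes are the closest relatives of Aplnr, held little signal. Of its 8 measured genes limma called none in either experiment, and 6 lay at background in the YAP arrays and 7 in the Nf2 arrays. With YAP overexpression 2 had an unadjusted limma p under 0.05 and with Nf2 loss 0, against 18.6% and 5.81% of all genes. Microglial and macrophage genes went the other way from Aplnr and the endothelial genes with Nf2 loss. All 10 were higher, with a median difference of 0.32, none called by limma and 4 with an unadjusted p under 0.05. Their list mean was higher by 0.30, 0.36 and 0.30 in the 3 knockout arrays.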
